A study of Mus musculus with 4 samples.

Results

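The 9 genes described here are those by which mammary epithelial cells sense hormones and pass the signal on. They are Esr1, Pgr and Prlr, which encode the receptors for oestrogen, progesterone and prolactin, Stat5a and Cited1, which encode a transcription factor and a transcriptional cofactor, Prom1, Tph1, Calca and Tnfsf11. They were taken by name from the 32285 genes of the count tables, and all 9 were found. Only a share of mammary luminal cells carries the oestrogen and progesterone receptors, and these hormone receptor-positive (HR+) cells act on their neighbours through secreted factors. HR- luminal cells hold the progenitors of the milk-producing lineage, and basal cells form the contractile outer layer. Oestrogen raises the transcription of Pgr, progesterone acts in part through the secreted ligands Tnfsf11 (RANKL) and Wnt4, and prolactin acts through the kinase Jak2 and the transcription factors Stat5a and Stat5b.

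The data were droplet single-cell RNA sequencing counts of mouse mammary organoids in 4 libraries, 1 for each combination of genotype and treatment. The groups were Wildtype Untreated (wild-type control), Wildtype HU, Brca2mut/WT Untreated (Brca2mut/WT control) and Brca2mut/WT HU, where Brca2mut/WT stands for 1 germline truncated copy of the tumour suppressor Brca2 in every cell and HU for hydroxyurea, which stalls DNA replication, given in the study's methods for 1 day in each passage of culture. All 4 groups were grown in Matrigel from glands of virgin female mice, littermates of the 2 genotypes in the study's methods, and were frozen, thawed and cultured again before capture. The labels give 2 replicates to a library but neither the age of the mice nor the passage, whereas the study describes captures at passages 0 and 4, that is, after 1 or several rounds of HU, and organoids are epithelial cultures without the ovarian and pituitary hormones of the animal.

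After the study's filter of 1000 to 6000 detected genes and under 5% mitochondrial UMIs (unique molecular identifiers, each counting 1 captured RNA molecule), 17360 of 33268 cells remained, 3293 to 5312 a library, with median depths of 24180 to 26893 UMIs. The study states more cells after this filter than the deposited tables hold before it, so the cells described here are not the same set as those it analysed. Each cell was placed by 2 genes that are not among the 9. Cells with at least 500 CPM (UMIs of the gene per 1000000 UMIs of the cell) of Krt14, a basal keratin, were called basal, those with at least 300 CPM of Areg, a growth factor of HR+ cells, HR+ luminal, and those under 300 CPM of both HR- luminal. This gave 569 HR+ luminal cells (176 and 146 from the wild type without and with HU, and 124 and 123 from Brca2mut/WT), 14008 HR- luminal and 2217 basal cells. A further 109 cells passed both gates and 457 lay between them. The Areg gate is a range and not a cell type, since 350 cells lay within a factor of 2 of its limit and 50 of the 569 cells passed it on 1 or 2 Areg UMIs.

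The labels of the gates were checked with other markers. Over the 4 libraries, the HR+ luminal markers Ly6a, Wnt4, Foxa1 and Cxcl15 were at 3236 to 6000.3, 284 to 445, 111 to 132 and 61.8 to 119 CPM in the HR+ luminal gate, against 62.6 to 69.1, 3.07 to 5.59, 3.18 to 5.45 and 0.804 to 3.00 in the HR- luminal gate. The 8 HR- luminal markers summed to 25323 to 29931 CPM in their own gate and 1500.2 to 2901 in the HR+ luminal gate. Csn3 was the largest part, at 18296 to 21471 CPM in the HR- luminal gate. Aldh1a3 went the other way in every library, at 26.7 to 78.8 CPM in HR+ and 18.0 to 31.5 in HR- luminal cells. Basal markers summed to 10923 to 15451 CPM in basal cells and to 117 to 192 in HR- luminal cells. This list includes the gate gene Krt14, at 7388 to 11639 CPM in basal cells, so the gate itself set much of that difference. Apart from Krt14, Krt5 was at 1822 to 2861 CPM in basal and 14.0 to 34.1 in HR- luminal cells. Oxtr differed least, at 9.24 to 21.2 and 7.13 to 8.53 CPM. Of the 6 stromal markers, Dcn was at 702 to 1661 CPM in the libraries of the HR+ luminal gate, Col3a1 and Lum had no UMI there and the other 3 were at most at 0.732 CPM. Immune and endothelial markers summed to at most 2.13 CPM in that gate, with Ptprc, Lyz2, Cd3e, Cdh5 and Kdr at 0.

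In the GENCODE M21 annotation of GRCm38, Esr1 (ENSMUSG00000019768) lies on chromosome 10 from 4611593 to 5005614, Pgr (ENSMUSG00000031870) on chromosome 9 from 8899833 to 8968611 and Prlr (ENSMUSG00000005268) on chromosome 15 from 10177238 to 10349180, all on the plus strand. Stat5a (ENSMUSG00000004043) lies on the plus strand of chromosome 11 from 100859351 to 100885169, beside its close relative Stat5b, and overlaps Stat3 on the other strand. Cited1 (ENSMUSG00000051159, chromosome X from 102247381 to 102252181), Prom1 (ENSMUSG00000029086, chromosome 5 from 43993620 to 44102032), Tph1 (ENSMUSG00000040046, chromosome 7 from 46644641 to 46672537), Calca (ENSMUSG00000030669, chromosome 7 from 114631478 to 114636357) and Tnfsf11 (ENSMUSG00000022015, chromosome 14 from 78277445 to 78308043) are on the minus strand. Prlr and Prom1 each overlap 1 predicted gene model on their own strand (Gm21973 and Gm42716), whose reads may not be separable from theirs.

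All 9 genes had promoter windows in RefSeq (GRCm38.p6), 17 in all, each from 250 bases before to 50 bases after an annotated start. The reads mark the 3′ ends of transcripts and do not show which start was used. The windows were searched on both strands for the oestrogen response half-site GGTCA, for 2 such half-sites facing each other 3 bases apart, for the Stat5 motif TTCNNNGAA and for the forkhead motif TGTTTAC, to which Foxa1-type factors bind. The half-site was found in 9 of the 17 windows, against 40.5% of all 32851 promoter windows of that length. The facing pair was found in 0 of 17 windows and in 0.0700% of all windows. TTCNNNGAA was found in 2 of 17 windows (1 of Esr1 and 1 of Prlr) against 8.30%, and TGTTTAC in 1 of 17 (Prlr) against 3.65%. A match describes the letters only and is no evidence of binding. Below are the window of Calca, the gene with the widest range between libraries, that of Cited1, which was high in a cluster of cells nearly without Calca, the Prlr window with both the Stat5 and forkhead motifs, and the Stat5a window with 4 half-sites. Capitals mark the motifs, and each sequence runs 5′ to 3′ along its gene's strand.
Calca (chr7:114636308-114636607, minus strand): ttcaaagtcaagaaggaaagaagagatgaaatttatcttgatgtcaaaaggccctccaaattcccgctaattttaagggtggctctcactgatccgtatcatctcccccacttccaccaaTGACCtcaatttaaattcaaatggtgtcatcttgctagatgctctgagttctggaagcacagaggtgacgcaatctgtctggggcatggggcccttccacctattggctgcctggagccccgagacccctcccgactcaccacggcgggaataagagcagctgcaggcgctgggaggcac
Cited1 (chrX:102252132-102252431, minus strand): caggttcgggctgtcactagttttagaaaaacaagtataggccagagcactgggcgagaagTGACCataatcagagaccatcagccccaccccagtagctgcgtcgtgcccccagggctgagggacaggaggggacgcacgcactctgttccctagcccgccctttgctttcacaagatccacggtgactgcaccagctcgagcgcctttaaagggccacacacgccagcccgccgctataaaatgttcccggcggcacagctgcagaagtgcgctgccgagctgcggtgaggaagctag
Prlr (chr15:10223656-10223955, plus strand): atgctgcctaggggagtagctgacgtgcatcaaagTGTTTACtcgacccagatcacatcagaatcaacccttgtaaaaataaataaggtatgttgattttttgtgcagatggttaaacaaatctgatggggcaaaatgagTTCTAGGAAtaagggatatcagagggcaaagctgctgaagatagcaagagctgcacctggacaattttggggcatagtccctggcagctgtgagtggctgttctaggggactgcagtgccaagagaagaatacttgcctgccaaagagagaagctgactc
Stat5a (chr11:100859406-100859705, plus strand): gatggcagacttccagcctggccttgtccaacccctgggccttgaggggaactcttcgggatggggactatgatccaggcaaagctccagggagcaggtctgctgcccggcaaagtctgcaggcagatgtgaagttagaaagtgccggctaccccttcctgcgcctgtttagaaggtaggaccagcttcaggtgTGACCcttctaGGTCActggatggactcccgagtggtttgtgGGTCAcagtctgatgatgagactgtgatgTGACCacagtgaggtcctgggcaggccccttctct

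The receptor genes were asked first in which lineage they were expressed. UMIs were summed over the cells of a lineage in each library, and lineages were compared with edgeR's quasi-likelihood test over the 4 libraries, with library as a block and a call at an adjusted p under 0.05 and at least a 2-fold difference. Values are given in the order wild type without and with HU, then Brca2mut/WT without and with HU. In the HR+ luminal gate Esr1 was at 27.0, 18.1, 26.1 and 36.6 CPM. Its level in HR- luminal cells was 1.36, 1.13, 1.25 and 1.22 CPM, and in basal cells 4.36, 4.02, 6.41 and 4.21 CPM. The 3 sets of values did not overlap, and the order from HR+ luminal through basal to HR- luminal held in every library. HR+ luminal exceeded HR- luminal cells by 4.22 ± 0.18 on the log2 scale (± SE, edgeR adjusted p = 7.4e-09) and basal cells by 2.44 ± 0.19 (adjusted p = 1.2e-06), and basal exceeded HR- luminal cells by 1.78 ± 0.19 (adjusted p = 7e-06).

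Pgr, in the same library order, had 138, 65.4, 138 and 117 CPM in HR+ luminal cells, 2.27, 1.89, 2.82 and 2.72 in HR- luminal cells and 4.17, 7.52, 4.17 and 5.47 in basal cells. The wild-type HU library was the lowest of the 4 in HR+ luminal and the highest in basal cells. The difference between HR+ and HR- luminal cells was 5.37 ± 0.24 (log2, edgeR adjusted p = 9.8e-09), that between HR+ luminal and basal cells 4.24 ± 0.26 (adjusted p = 2.2e-07) and that between basal and HR- luminal cells 1.13 ± 0.27 (adjusted p = 0.0036). The last call was lost without the wild-type HU library, where the difference was 0.69, under 2-fold, and under the looser cell filter (no upper limit on genes, under 10% mitochondrial UMIs), where it was 0.49.

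Prlr followed another order. It had 927, 1077, 1309.5 and 1189 CPM in HR+ luminal cells, 90.1, 85.3, 88.1 and 92.5 in HR- luminal cells and 20.8, 9.77, 26.4 and 17.8 in basal cells. The HR- luminal values lay within 7.2 CPM of each other and above all basal values. HR+ luminal cells exceeded HR- luminal cells by 3.46 ± 0.19 (log2, edgeR adjusted p = 4e-08) and basal cells by 5.92 ± 0.22 (adjusted p = 9.2e-09), and basal cells were below HR- luminal cells by a log2 difference of -2.45 ± 0.20 (adjusted p = 7.9e-07).

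**Figure D1:**
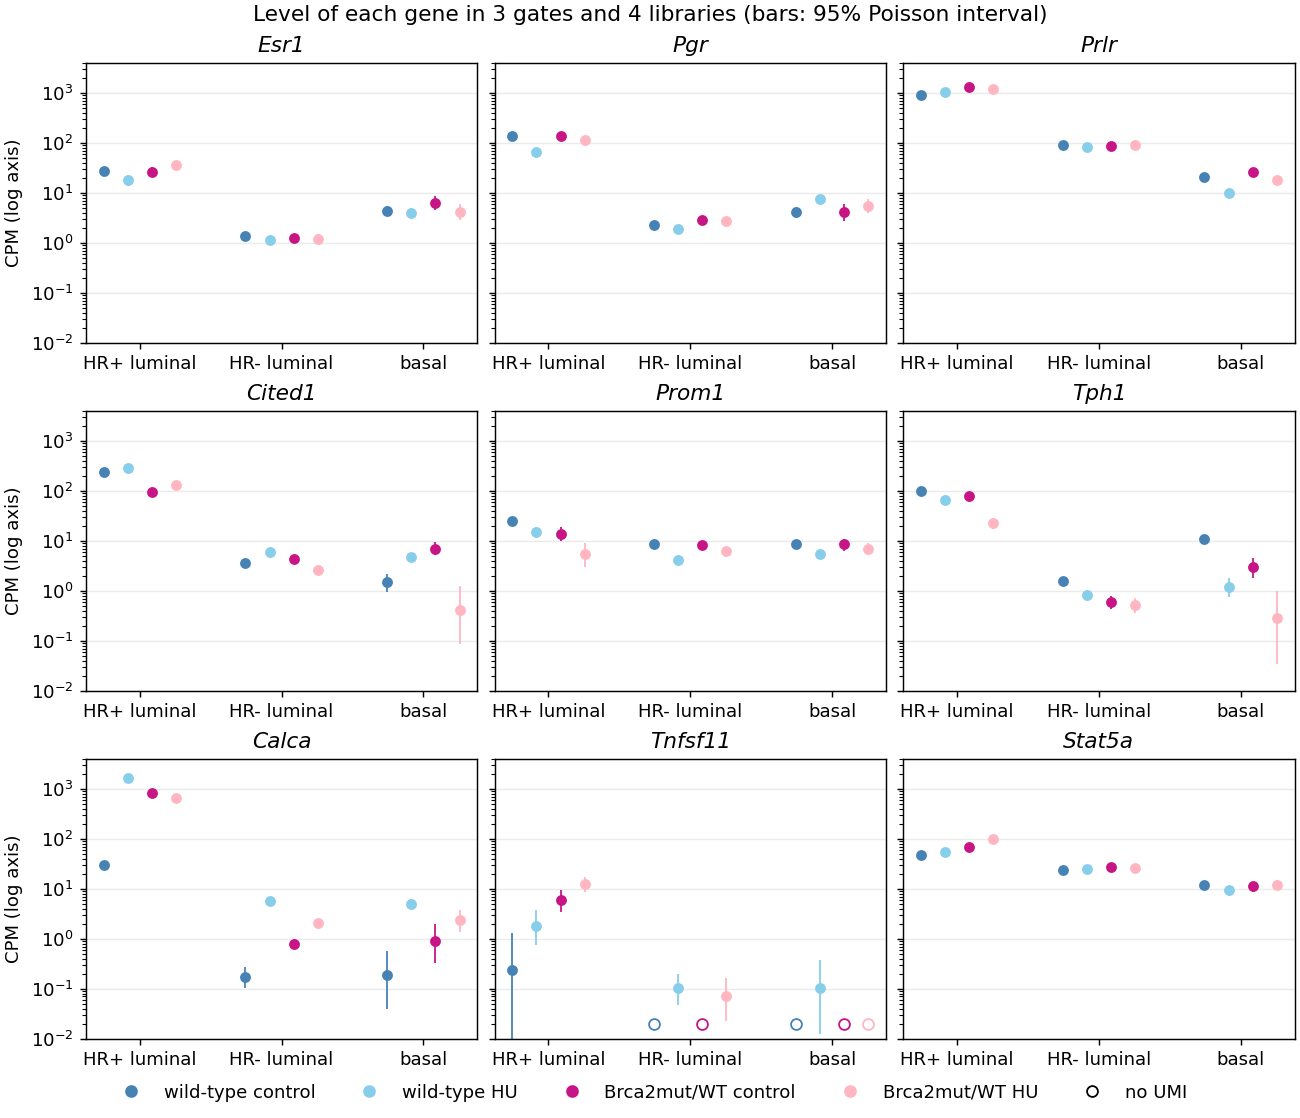
Level of each of the 9 genes (CPM, log axis) in the HR+ luminal, HR- luminal and basal gates. Each point is 1 library, bars are exact 95% Poisson intervals that cover counting error only, and open circles at the foot mark libraries with no UMI; Prlr in HR- luminal cells lies between 85.3 and 92.5, whereas Calca in HR+ luminal cells runs from 30.3 to 1629.9.

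Stat5a, which carries the prolactin signal to the nucleus, shared the order of Prlr on a smaller scale. Its HR+ luminal values were 47.6, 54.3, 67.9 and 98.5 CPM, its HR- luminal values 23.9, 24.8, 27.9 and 26.1 and its basal values 12.1, 9.40, 11.2 and 12.1. No lineage overlapped another. HR+ luminal cells were 1.16 ± 0.14 above HR- luminal cells (log2, edgeR adjusted p = 2.4e-05), which was 0.97 without the Brca2mut/WT HU library and 0.90 under the looser cell filter, both under 2-fold. The difference from basal cells was 2.48 ± 0.16 (adjusted p = 3.4e-07), and basal cells were below HR- luminal cells by a log2 difference of -1.32 ± 0.15 (adjusted p = 1.2e-05).

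Cited1, a cofactor that binds the oestrogen receptor, had 244, 285, 94.0 and 134 CPM in HR+ luminal cells, 3.66, 6.09, 4.32 and 2.62 in HR- luminal cells and 1.48, 4.70, 7.00 and 0.421 in basal cells. Both wild-type libraries were above both Brca2mut/WT libraries in HR+ luminal cells. HR+ luminal cells were higher than HR- luminal cells by 5.30 ± 0.34 (log2, edgeR adjusted p = 1.3e-07) and than basal cells by 5.91 ± 0.41 (adjusted p = 5.5e-07). Basal and HR- luminal cells had a log2 difference of -0.60 ± 0.44 (adjusted p = 0.25), and it turned to 1.65 (adjusted p = 4.7e-05) when the gates were applied to clusters of cells in place of single cells.

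Prom1, which encodes the surface protein prominin-1 used to sort HR+ luminal cells, differed least. It had 24.9, 15.0, 13.9 and 5.49 CPM in HR+ luminal cells, 8.79, 4.09, 8.46 and 6.34 in HR- luminal cells and 8.53, 5.38, 8.49 and 7.02 in basal cells. HR+ luminal cells were the highest in 3 of 4 libraries and the lowest in the Brca2mut/WT HU library. The difference from HR- luminal cells was 0.95 ± 0.25 (log2, edgeR adjusted p = 0.0055) and that from basal cells 0.99 ± 0.27 (adjusted p = 0.0089), both just under 2-fold, so neither was called. Leaving out the Brca2mut/WT HU library raised them to 1.22 and 1.25, past 2-fold, and the looser cell filter lowered the first to 0.10. Over 14 alternatives, Prom1 became called in 4 against HR- luminal and in 7 against basal cells. Basal and HR- luminal cells had a difference of -0.04 ± 0.23 (adjusted p = 0.89).

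Tph1, the rate-limiting enzyme of serotonin synthesis outside the brain, had 100.2, 64.8, 77.8 and 22.7 CPM in HR+ luminal cells, 1.55, 0.815, 0.589 and 0.521 in HR- luminal cells and 11.0, 1.20, 2.98 and 0.281 in basal cells. HR+ luminal cells were above HR- luminal cells by 6.10 ± 0.38 (log2, edgeR adjusted p = 1.2e-07) and above basal cells by 4.23 ± 0.39 (adjusted p = 4.8e-06). Basal cells exceeded HR- luminal cells by 1.87 ± 0.44 (adjusted p = 0.0031), but in 3 of 4 libraries only. Without the wild-type control library, whose basal cells held 171 of the 216 basal UMIs, the difference was 0.86 and was no longer called. The call was also lost, at 0.86, when the gates were applied to clusters. The basal clusters 1, 13, 14 and 15 had 0.719, 4.08, 0.641 and 0.524 CPM of Tph1.

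Calca, which encodes calcitonin and calcitonin gene-related peptide, had the largest difference between lineages and the widest range between libraries among the 8 tested genes. HR+ luminal cells had 30.3, 1629.9, 849 and 653 CPM, from 128, 6209, 2575 and 1783 UMIs. In HR- luminal cells it had 0.173, 5.68, 0.797 and 2.03 CPM and in basal cells 0.192, 5.07, 0.894 and 2.39. The intervals of HR- luminal and basal cells overlapped in each library, and their difference was -0.07 ± 0.44 (log2, edgeR adjusted p = 0.90). HR+ luminal cells exceeded HR- luminal cells by 8.45 ± 0.34 (adjusted p = 4.4e-09) and basal cells by 8.52 ± 0.39 (adjusted p = 2.9e-08), in 4 of 4 libraries.

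Tnfsf11 encodes RANKL, a ligand through which progesterone reaches neighbouring cells. It was too sparse to pass the edgeR filter on low counts and was not tested. HR+ luminal cells held 1, 7, 18 and 34 of its UMIs in the 4 libraries, or 0.237 (95% interval 0.00600 to 1.32), 1.84 (0.739 to 3.79), 5.94 (3.52 to 9.38) and 12.4 (8.62 to 17.4) CPM. HR- luminal cells held 0, 9, 0 and 5 UMIs and basal cells 0, 2, 0 and 0, although these lineages were sequenced far more deeply as a whole. In the 2 HR- luminal sums without a UMI, 3 counts, the limit that a count of 0 allows, would be 0.0289 CPM in the wild-type control and 0.0347 CPM in the Brca2mut/WT control.

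In sum over the tests, 7 of the 8 tested genes were higher in HR+ than in HR- luminal cells and 0 lower, where 12.8% of all 13249 tested genes were called higher and 28.7% in either direction. The same number, 7 of 8, was higher in HR+ luminal than in basal cells and 0 lower, against 9.42% of all genes higher and 21.5% in either direction. Esr1, Pgr and Tph1 were higher and Prlr and Stat5a lower in basal than in HR- luminal cells, 5 of 8 in all, against 12.3% of all genes higher and 24.3% in either direction. The median of the 8 genes was 4.76 for HR+ against HR- luminal, 4.24 for HR+ luminal against basal and -0.06 for basal against HR- luminal cells (log2), beside medians of -0.05, -0.04 and -0.01 over all tested genes. Krt14 and Areg, which set the gates, were left out of these counts.

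**Figure D2:**
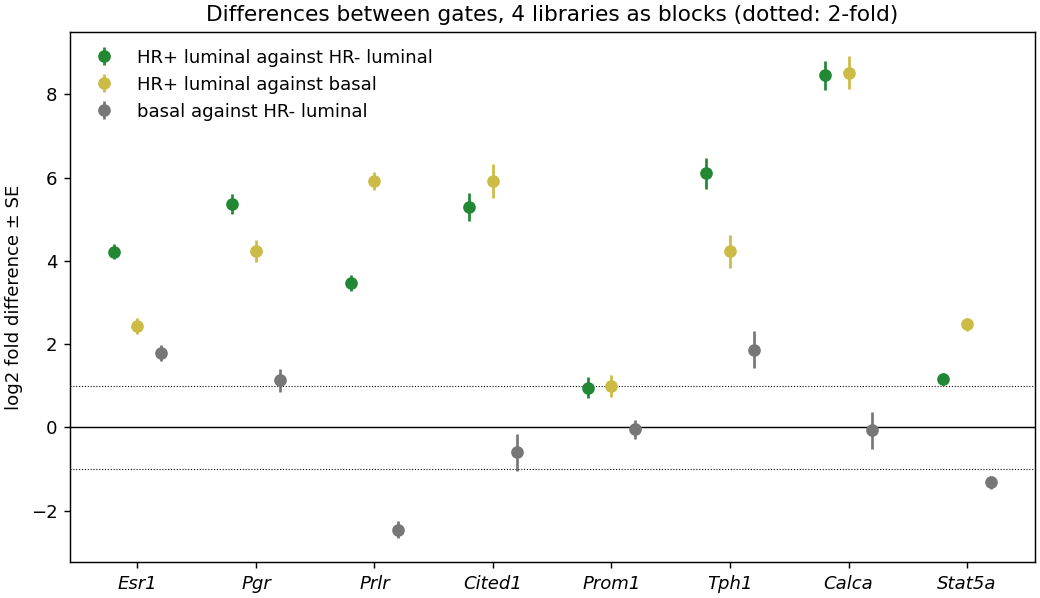
Log2 fold difference between lineages (points) with its SE (bars) from edgeR for the 8 genes that passed the filter on low counts, with 4 libraries as blocks and dotted lines at 2-fold. Calca is at 8.45 and 8.52 in the HR+ luminal comparisons, Prom1 lies just under the 2-fold line in both, and Prlr and Stat5a alone are called below 0 in basal against HR- luminal cells.

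The HR- luminal gate was not uniform. Of its 14008 cells, 1370 (9.78%) belonged to clusters with over 20 CPM of Trp63, a basal transcription factor, and 200 (1.43%) to clusters with at least 300 CPM of Areg. The 200 cells held 53.9% of the Cited1 UMIs of the gate, 46.6% of Calca, 42.6% of Tph1, 25.7% of Pgr and 20.1% of Esr1, but 6.10% of Prlr and 1.68% of Stat5a. The 1370 cells held 42.0% of the Esr1 UMIs and 1.62% of those of Prlr. In the other 12438 cells Esr1 was at 0.521 CPM, Cited1 at 1.71, Tph1 at 0.511 and Calca at 1.10, whereas Prlr was at 90.5 and Stat5a at 26.3, close to their levels in the whole gate. With both sets of cells left out, an alternative chosen after the data were seen, the difference of Esr1 between HR+ and HR- luminal cells rose from 4.22 to 5.47 and that of Cited1 from 5.30 to 6.55 (log2).

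Levels of the 9 genes were next followed over the range of Areg among cells under 300 CPM of Krt14, as a description across cells that share libraries. From under 150 CPM of Areg (13895 cells) through 150 to 300 (113 cells), 300 to 1000 (154), 1000 to 3000 (152) and 3000 or more (219), Prlr went from 87.9 to 269.9, 652, 1031 and 1409 CPM. Pgr went from 2.21 to 37.3, 71.4, 103 and 144 CPM, Esr1 from 1.19 to 11.0, 18.4, 27.8 and 29.9, and Stat5a from 25.6 to 26.8, 46.3, 62.0 and 76.1. These 4 genes were higher in each further range. Cited1 had 3.54, 127, 226, 258 and 176 CPM and Prom1 6.92, 29.9, 26.9, 13.9 and 12.4 CPM, so that Cited1 was highest in the fourth range and Prom1 in the second, below the gate. Calca had 1.40, 123, 328, 1025 and 925 CPM. Cells of the second range had a median of 16030 UMIs against 25386 in the first.

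Shares of cells with a UMI were compared at equal depth by thinning each cell to 5000 UMIs, which left 502 of the 569 HR+ luminal, 13276 HR- luminal and 2040 basal cells. Prlr was detected in 78.5% of HR+ luminal cells (95% exact binomial interval 74.6 to 82.0), 31.3% of HR- luminal (30.5 to 32.1) and 6.03% of basal cells (5.04 to 7.15). Pgr was detected in 38.2% (34.0 to 42.7), 1.21% and 2.84% and Esr1 in 11.0% (8.36 to 14.0), 0.595% and 2.21% of the same cells. Calca had shares of 29.3% (25.3 to 33.5) in HR+ luminal, 0.648% (0.518 to 0.799) in HR- luminal and 0.931% (0.562 to 1.45) in basal cells, and Cited1 24.3%, 1.18% and 0.588%. The intervals of Calca overlap between HR- luminal and basal cells, and those of Esr1, at 0.471 to 0.741 and 1.61 to 2.94, do not. Prom1 was found in 6.57% (4.57 to 9.11), 3.12% (2.83 to 3.43) and 3.63% (2.86 to 4.53). With all UMIs the HR+ luminal shares were higher, 80.8% for Prlr, 63.4% for Pgr, 58.5% for Stat5a, 39.9% for both Esr1 and Cited1, 36.7% for Calca, 24.6% for Tph1, 20.7% for Prom1 and 3.34% for Tnfsf11, at median depths of 26346 UMIs in HR+ luminal, 25335 in HR- luminal and 21484 in basal cells.

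Among HR+ luminal cells, UMIs of the 3 receptor genes and Stat5a were spread over more cells than those of the other 5 genes. The cells that held 50% of a gene's UMIs were 96 of 569 (16.9%) for Prlr, 82 (14.4%) for Pgr, 74 (13.0%) for Stat5a and 66 (11.6%) for Esr1. They were 28 (4.92%) for Prom1, 18 (3.16%) for Cited1, 17 (2.99%) for Tph1, 14 (2.46%) for Calca and 4 (0.703%) for Tnfsf11. A single cell of the wild-type HU library held 765 Calca UMIs, and 10 cells held 67.5% of the Calca UMIs of that library. In the Brca2mut/WT control library, 2 cells were enough for 50% of the 236 Tph1 UMIs. A level of Calca, Tph1, Cited1 or Tnfsf11 in a library is therefore the sum of a few cells, and its Poisson interval does not cover the sampling of cells.

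**Figure D3:**
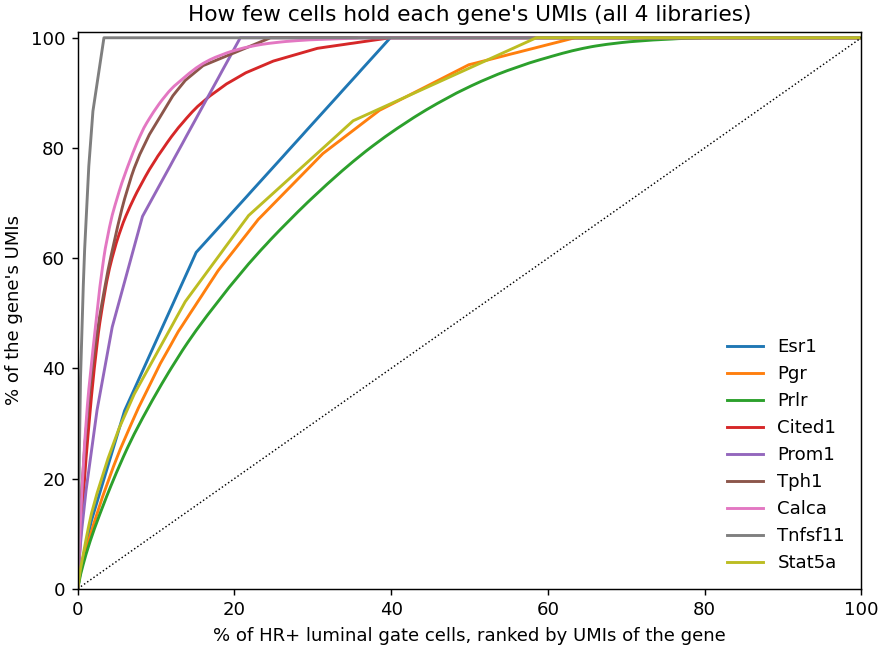
Cumulative share of each gene's UMIs (vertical axis, %) over the 569 HR+ luminal cells ranked by UMIs of that gene (horizontal axis, %); the dotted diagonal marks an even spread. Tnfsf11, Calca, Tph1 and Cited1 rise steeply, with 50% of UMIs in 0.703% to 3.16% of cells, and Prlr is the flattest, at 16.9%.

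Among these 5 genes, the share of cells with one gene differed by whether another was detected, upward for some pairs and downward for others. After thinning, 147 HR+ luminal cells had a Calca UMI and 355 had none. Tph1 was detected in 2.72% of the former (0.746 to 6.82) and 16.1% of the latter (12.4 to 20.3), and Prom1 in 1.36% (0.165 to 4.83) and 8.73% (6.01 to 12.2). Cited1 was found in 17.0% (11.3 to 24.1) and 27.3% (22.8 to 32.3), with intervals that overlap. Prlr was detected in 96.6% of cells with Calca (92.2 to 98.9) and 71.0% of those without (66.0 to 75.7), and of the 9 cells with Tnfsf11, 8 had Calca. Of the 33 cells with a Prom1 UMI, 57.6% had Cited1 (39.2 to 74.5), against 22.0% (18.3 to 26.0) of the 469 without. These shares pool cells of 4 libraries and are a description without a test. Clusters of the cells ran along the same line. Of the HR+ luminal cells, 400 were in cluster 20, with 991 CPM of Calca, 1351 of Prlr, 106 of Cited1 and 8.44 of Prom1. A further 71 were in cluster 21, with 1.08 CPM of Calca, 287 of Prlr, 756 of Cited1 and 65.7 of Prom1, while Esr1 was at 28.9 and 21.5 CPM and Tph1 at 69.5 and 91.5. In library order, the gate's other cells were 3, 5, 0 and 1 in Trp63 clusters and 30, 16, 16 and 27 in further clusters. Clusters 20 and 21 held 14566 and 533 of the gate's 15232 Prlr UMIs and 1430 and 127 of its 1570 Pgr UMIs. They held 10687 and 2 of its 10695 Calca UMIs. The other cells thus fell mostly among those without Calca, and no share given for the gate was recomputed without these cells. Taken whole, cluster 21 (304 cells) had 1045 CPM of Krt14 and 633 of Areg. It passed both gates as a cluster and was assigned to no lineage, and no doublet caller was run.

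Other genes of the pathways were taken from lists. The rule named at most 5 of a list, those with the largest and smallest differences, and the further ones given here were chosen after their values were seen. Of the other steroid receptors, Nr3c1, the glucocorticoid receptor, was lower in HR+ than in HR- luminal cells, with a log2 difference of -1.37 ± 0.12 (edgeR adjusted p = 2.3e-06), and Nr3c2, the mineralocorticoid receptor, had 0.90 ± 0.28 and was not called. Esr2, the second oestrogen receptor, averaged 0.125 CPM in HR+ and 0.767 in HR- luminal cells and was not tested. Of 14 coregulators and pioneer factors, 5 were higher in HR+ than in HR- luminal cells, 0 lower and 9 not called, where 12.8% of all genes were higher and 28.7% called in either direction. Greb1, an early target and cofactor of the oestrogen receptor, had 7.61 ± 0.31 (38.5 against 0.162 CPM), and Foxa1, which opens chromatin for that receptor, 4.77 ± 0.20 (124 against 4.03 CPM). Greb1 passed the filter on low counts through its HR+ luminal sums, so that it could hardly have been called lower in these cells. The general coactivators and corepressors Ncoa1, Ncoa2, Ncoa3, Ncor1, Ep300 and Crebbp lay between -0.94 and 0.03 and were not called. Of these, Ncoa1 had -0.94 ± 0.09 (adjusted p = 3.5e-06) and was higher in 0 of 4 libraries, but the difference was under 2-fold. The list's median was -0.07, beside -0.05 over all genes. Against basal cells 4 of the 14 were higher and 0 lower in HR+ luminal cells, and between basal and HR- luminal cells 2 were higher (Greb1 and Nrip1) and 1 lower (Gata3) in basal cells. Over all genes these shares were 9.42% higher and 21.5% in either direction, then 12.3% and 24.3%. Nr3c2 was higher and Nr3c1 lower in HR+ luminal than in basal cells, and neither was called between basal and HR- luminal cells.

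Of the 10 paracrine genes other than Areg, 6 were tested, 1 was higher and 3 were lower in HR+ than in HR- luminal cells. Of all tested genes 12.8% were higher and 28.7% called in either direction. Wnt4, a secreted Wnt ligand, had 6.20 ± 0.24 (371 against 4.46 CPM, edgeR adjusted p = 3.5e-09). The lower genes were receptors, Tnfrsf11a (RANK, the receptor of Tnfsf11; -3.17 ± 0.18, adjusted p = 4.6e-08), the decoy receptor Tnfrsf11b (-1.96 ± 0.70, adjusted p = 0.029) and Calcrl, a receptor for Calca's peptide (-3.20 ± 0.66, adjusted p = 0.0013). The calls of Tnfrsf11b and Calcrl lie near the limit of detection. HR+ luminal cells held 0, 4, 0 and 0 UMIs of Tnfrsf11b and 2, 0, 0 and 0 of Calcrl. Calcrl passed the filter on low counts through its HR- luminal sums, at 0.943 to 1.40 CPM. Its call as lower in HR+ than in HR- luminal cells, included in the count above, was therefore nearly fixed in advance. In wild-type HU, Tnfrsf11b was at 1.05 CPM in HR+ and 1.12 in HR- luminal cells. In HR+ luminal against basal cells 1 of the 6 was higher and 5 lower, where 9.42% of all genes were higher and 21.5% called in either direction. In basal against HR- luminal cells 4 were higher and 1 lower, where 12.3% of all genes were higher and 24.3% called in either direction. Tnfrsf11a was at 16.6 CPM in HR- luminal cells, 4.27 in basal and 2.10 in HR+ luminal cells. Calcrl was at 1.21 CPM or less in each lineage, while Ramp1, its partner in that receptor, was at 452 CPM in basal cells, 84.5 in HR- and 70.6 in HR+ luminal cells. Slc6a4, the serotonin transporter, was at 2.74 CPM in basal cells and under 0.1 in both luminal lineages. It had 35, 24, 36 and 15 UMIs in basal and 6, 3, 2 and 2 in HR- luminal cells. It passed the filter on low counts only through its basal sums. Its calls as higher in basal cells, included in the counts above, were therefore nearly fixed in advance.

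Of the 11 genes of the prolactin pathway, 9 were tested, 2 were higher and 2 lower in HR+ than in HR- luminal cells, with a median of -0.69. Among all tested genes 12.8% were higher and 28.7% called in either direction. Jak2, the kinase bound to the prolactin receptor, was higher by 1.62 ± 0.09 (edgeR adjusted p = 5.4e-08) and Socs3, a feedback inhibitor, by 1.75 ± 0.18 (adjusted p = 6.2e-06). Elf5, a transcription factor of the milk lineage, had a difference of -3.70 ± 0.15 (9.47 against 111 CPM, adjusted p = 5e-09) and Socs2, another inhibitor, -2.49 ± 0.13 (32.4 against 161 CPM, adjusted p = 3.6e-08). Stat5b, the relative of Stat5a, did not share its difference between the luminal lineages, with 23.8 CPM in HR+ and 26.6 in HR- luminal cells (-0.36 ± 0.10). It shared the lower level in basal cells, at 8.50 CPM. HR+ luminal exceeded basal cells by 1.43 ± 0.12 (edgeR adjusted p = 1.8e-06), and basal against HR- luminal cells gave -1.79 ± 0.10 (adjusted p = 3.5e-08). Against basal cells 3 of the 9 were higher and 1 lower in HR+ luminal cells, and 1 was higher and 3 lower in basal than in HR- luminal cells. All genes gave 9.42% higher and 21.5% in either direction in the first comparison and 12.3% and 24.3% in the second. The milk protein genes Csn2 and Wap averaged under 0.7 CPM in every lineage and were not tested.

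The genes most like the receptors were sought by Pearson's r of log2(CPM + 1) over the 12 sums of 3 lineages and 4 libraries, among 9608 genes with at least 10 CPM in a sum. Those for Esr1 were Arvcf (r = 0.9948), Ralb (0.9936) and Pla1a (0.9929), those for Pgr Plcb3 (0.9924), Prkab1 (0.9892) and Epdr1 (0.9882), and those for Prlr Mlph (0.9922), Tmprss2 (0.9891) and Lasp1 (0.9887). The 12 points share libraries and lineages, so these values rank genes and carry no test. Mlph, which links vesicles to myosin, averaged 266 CPM in HR+ luminal, 36.0 in HR- luminal and 8.75 in basal cells.

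The study's conditions were then compared in HR+ luminal cells. With 1 library a condition no test was possible, and ratios of CPM are given with exact 95% counting intervals. A gene was counted where it had at least 10 CPM in 1 of the libraries and a ratio of at least 1.5 in either direction. In the wild type, HU against untreated, 4 of the 8 genes that reached 10 CPM passed this limit, against 11.7% of all 8228 genes. Calca was 53.7 times higher (45.1 to 64.5), Pgr had a ratio of 0.473 (0.406 to 0.550), Prom1 0.601 (0.428 to 0.838) and Tph1 0.647 (0.551 to 0.759). Esr1, at 0.671 (0.490 to 0.912), did not reach it, its inverse lying just under 1.5, and Prlr (1.16), Cited1 (1.17) and Stat5a (1.14) were near 1. In Brca2mut/WT, HU against untreated, 3 of 9 passed, against 11.9% of all genes. Tph1 had 0.292 (0.217 to 0.387), Prom1 0.396 (0.204 to 0.730) and Tnfsf11 2.10 (1.15 to 3.94), whereas Calca had 0.769 (0.723 to 0.817) and Pgr 0.850 (0.732 to 0.985). Tnfsf11 and Prom1 reached 10 CPM in only 1 of these 2 libraries, so that each could be counted in 1 direction only, and without both the count was 1 of 7. Tph1 and Prom1 had ratios under 1 with HU in both genotypes, but each turned in 1 genotype when the cells with 1 of the antibody tags were left out. Tph1 in the wild type was 1.20 without tag pool 4 of the control, and Prom1 in Brca2mut/WT was 1.21 without tag pool 4 of the HU library.

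Between genotypes without HU, 3 of 8 passed, against 9.69% of all genes. Calca in Brca2mut/WT was 28.0 times that in the wild type (23.4 to 33.7), and Cited1 (0.385, 0.337 to 0.440) and Prom1 (0.557, 0.380 to 0.804) were lower. Esr1 and Pgr had ratios of 0.965 (0.715 to 1.30) and 0.998 (0.878 to 1.13). With HU, 8 of 9 passed, against 9.65% of all genes, 4 in each direction. Tnfsf11 (6.77, 2.96 to 18.1), Esr1 (2.02, 1.47 to 2.79), Stat5a (1.81, 1.51 to 2.18) and Pgr (1.79, 1.51 to 2.12) were higher in Brca2mut/WT, and Cited1 (0.470), Calca (0.401), Prom1 (0.367) and Tph1 (0.350) lower. Here too Tnfsf11 and Prom1 reached 10 CPM in 1 library only, and without them the count was 6 of 7. Under the looser cell filter 2 genes passed in this last comparison and Tph1 turned to 1.27. That filter kept 361 HR+ luminal cells of wild-type HU and 313 of Brca2mut/WT HU, against 146 and 123. The count of 8 of 9 thus did not hold in this larger set of cells, for which no share of all genes is given. Calca under that filter had 26.9 (HU, wild type), 1.40 (HU, Brca2mut/WT), 12.8 (genotype, untreated) and 0.667 (genotype, HU). The 4 comparisons share libraries, and their counts are not independent of each other.

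**Figure D4:**
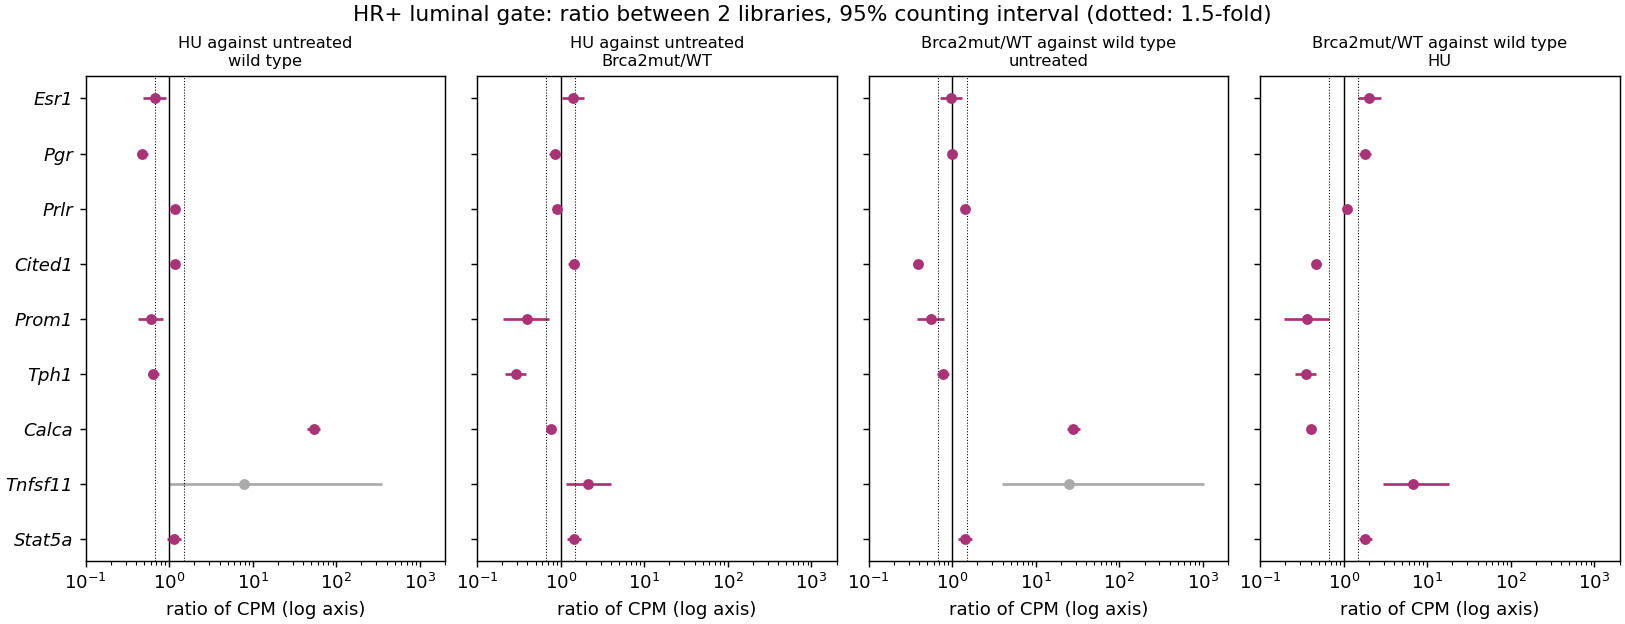
Ratio of CPM between 2 libraries in the HR+ luminal gate (log axis) for the 9 genes in 4 comparisons, with exact 95% counting intervals and dotted lines at 1.5-fold; grey points are below 10 CPM in both libraries. Calca stands at 53.7 and 28.0 in the 2 comparisons against the wild-type control and below 1 in the other 2.

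Each library also carried 4 antibody tags, for which no key was found, so cells with a given tag were kept as unlabelled pools. A pool may be a mouse, a replicate or a passage, and if it is a passage, the ratios between whole libraries mix cells with different numbers of HU rounds. The HR+ luminal cells were unevenly divided among them, and 144 of the 569 had no single tag. In the wild-type control, pool 4 (62 cells) had 40.6 CPM of Calca, pool 2 (30 cells) 2.87 and pools 1 and 3 (19 and 10 cells) no UMI. In wild-type HU, pool 2 (83 cells) had 1978 CPM and pool 4 (22 cells) 699, and in the Brca2mut/WT libraries pool 4 had 1019 (89 cells) and 727 (62 cells) and no other pool above 8.85. The high level with HU in the wild type was therefore seen in 2 pools and the levels of the Brca2mut/WT libraries in 1 each. The wild-type ratio stayed between 32.1 and 70.1 when any 1 pool was left out. The Brca2mut/WT ratio ran from 0.548 to 6.31, the latter without pool 4 of the control, and without that pool the genotype ratio in untreated cells was 3.41 in place of 28.0. Both values rest on few control cells, 11, 3 and 1 in the other pools and 20 with no single tag. The last had 238 CPM of Calca.

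Cited1 and Prom1 went the other way in some of the pools low in Calca, but not in all. In the wild-type control, pools 1 and 3 had 598 and 521 CPM of Cited1 against 167 and 234 in pools 2 and 4, and 67.6 and 61.3 CPM of Prom1 against 17.2 and 15.1. In the Brca2mut/WT control, pool 1 (11 cells) had 373 CPM of Cited1 and 104 of Prom1, and pool 4 had 54.6 and 4.86. Pools 2 and 3 of that library (3 cells and 1 cell) had no UMI of either. In wild-type HU, pool 3 (7 cells) had 676 and 86.0 CPM. Pool 1 there (9 cells), without a Calca UMI, had the library's lowest values, 156 and 5.20. In Brca2mut/WT HU, pool 1 (5 cells) had 624 and 57.9 CPM. Pools 2 and 3 of that library (10 and 2 cells) had 26.6 and 36.7 CPM of Cited1, from 3 and 2 UMIs, below the 121 of pool 4. They had 17.7 (2.14 to 63.9) and 18.4 (0.465 to 102) CPM of Prom1, from 2 and 1 UMIs. Pool 4 had 1.02 (0.124 to 3.69) from 2 UMIs, so these intervals overlap. Prlr had 325 and 253 CPM in pools 1 and 3 of the wild-type control against 1065 and 1116 in pools 2 and 4. Without pool 4 of the Brca2mut/WT control, the genotype ratio of Cited1 without HU went from 0.385 to 1.10 and that of Prom1 from 0.557 to 2.15. Pool and condition differ together in HR+ luminal cells, and the part of the pools in the condition ratios was not tested.

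**Figure D5:**
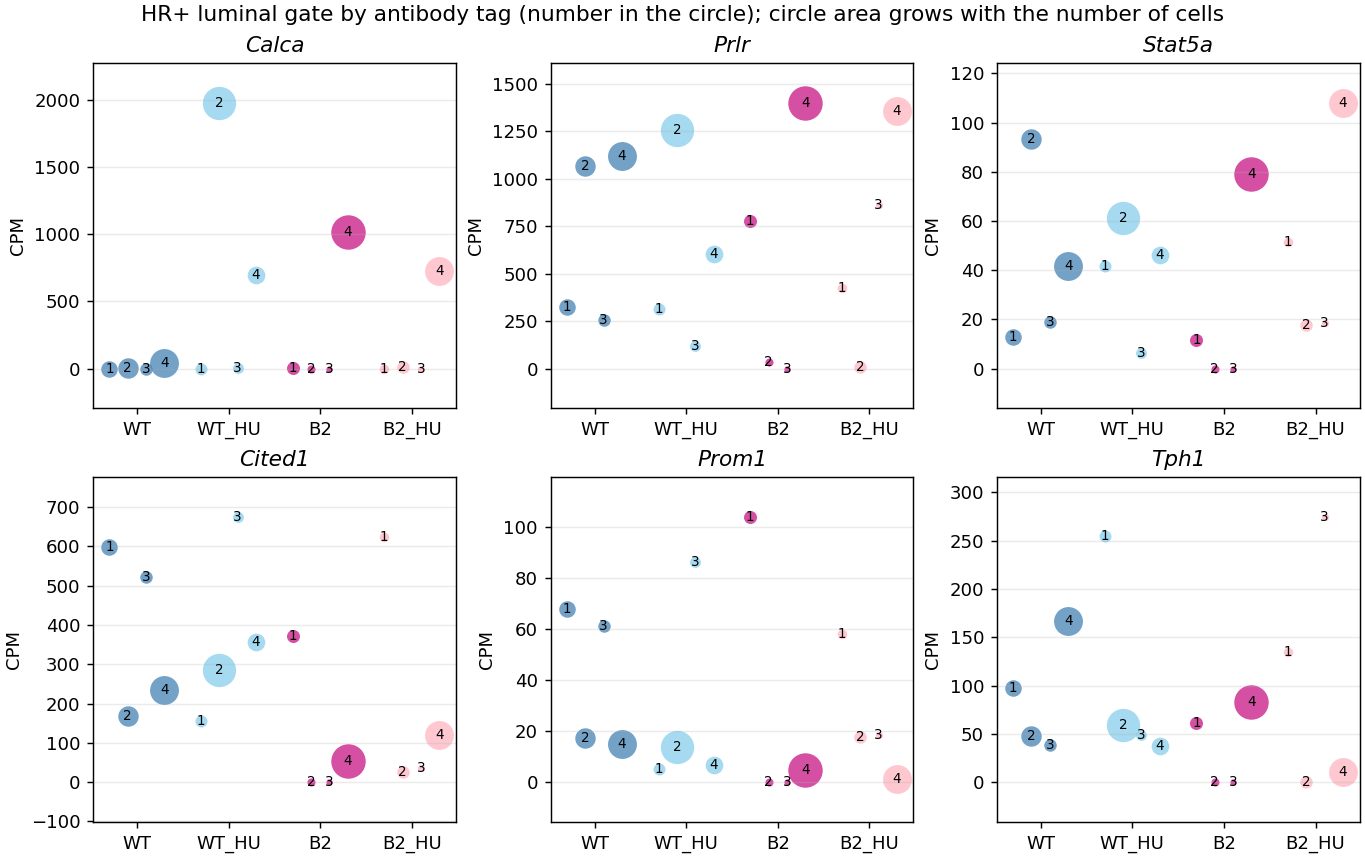
Level (CPM, linear axis) of 6 of the genes in HR+ luminal cells by library and antibody tag; the number in each circle is the tag's pool and the circle's area grows with its number of cells (1 to 89). Calca is high in pools 2 and 4 of wild-type HU and in pool 4 of both Brca2mut/WT libraries, and Cited1 and Prom1 are highest in pool 1 or 3 of each library.

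In HR- luminal cells, where only Prlr and Stat5a reached 10 CPM, 0 of 2 passed the 1.5-fold limit in any of the 4 comparisons, against 1.36%, 1.25%, 0.961% and 0.952% of all genes. Prlr had ratios of 0.947 (0.919 to 0.977) and 1.05 (1.02 to 1.08) with HU in the wild type and Brca2mut/WT and of 0.979 (0.949 to 1.01) and 1.08 (1.05 to 1.12) between genotypes without and with HU. Stat5a had 1.04, 0.935, 1.17 and 1.05. Below 10 CPM, the gate held 18 Calca UMIs in the wild-type control and 488 with HU, a ratio of 32.8 (20.5 to 55.8), and in Brca2mut/WT the ratio was 2.54 (1.90 to 3.44). The basal gate moved alike, from 0.192 to 5.07 CPM in the wild type, as did the HR+ luminal gate, from 30.3 to 1629.9, and 46.6% of the Calca UMIs of the HR- luminal gate lay in the 200 cells of the Areg clusters. With the Trp63 and Areg clusters left out of the gate, the ratio was 32.8 in the wild type and 3.34 in Brca2mut/WT. That alternative was chosen after the data were seen. With 1 library a condition, whether Calca changed within HR- luminal cells was not tested. Prom1, also below 10 CPM, had ratios of 0.465 (0.410 to 0.526) with HU in the wild type and 0.749 (0.665 to 0.844) in Brca2mut/WT. When 1 tag pool was left out, the wild-type ratio stayed between 0.350 and 0.584. The Brca2mut/WT ratio ran from 0.538 to 1.31, the latter without pool 2 of the control. Of the clusters assigned to HR- luminal, 16 and 17 had the most Prom1, at 32.3 and 25.3 CPM, above the 11.0 of cluster 20. Without and with HU, cluster 17 held 208 and 48 cells in the wild type and 605 and 294 in Brca2mut/WT. Cluster 16 held 60 and 17, then 54 and 33. The Prom1 ratios therefore describe the gate, and whether Prom1 changed within HR- luminal cells was not tested.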

How the data were processed

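Single-cell RNA sequencing counts of 4 libraries were used. Per the file headers and methods, the authors aligned reads and counted UMIs with Cell Ranger (6.0.2 in the submitters' notes, 6.1.1 in the deposited matrices) on mm10, and deposited raw counts per gene and cell, without normalization. The antibody tags were left out of gene totals, no doublet caller was run, and 129 of 33139 barcodes occurred in more than 1 library. The kept cells held 418167072 of 1062504699 UMIs.

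Cells were filtered and gated on Krt14 and Areg as the report states, and UMIs summed by library and lineage. The 12 sums were compared with edgeR 4.0.16 (quasi-likelihood test, TMM factors, library as a block, Benjamini-Hochberg adjustment; R 4.3.3); SE is the log2 fold change over the square root of F. P-values measure how far the lineage differences varied over 4 libraries that differ in condition. The block takes up the spread between libraries itself. Without the block, the SE of Calca in HR+ against HR- luminal cells was 1.20 in place of 0.34 (edgeR adjusted p = 3.7e-05). The test was tested on simulated data. Conditions had 1 library each and no test. Poisson, ratio and binomial intervals (exact, 95%) cover counting error only. Clusters came from scanpy 1.11.5 and thinning from numpy 2.4.6. The 9 genes, the pathway lists and the tests were chosen with earlier results of these data known. Named genes were the 9, at most 5 of each of 4 lists, and the 3 genes most like Esr1, Pgr and Prlr; list genes named beyond 5 were chosen after their values were seen. Alternatives changed the cell filter, gates, tags, depth, tool (DESeq2 1.42.0), gene filter, block and libraries or pools; 2 were added after the data were seen, one without the Trp63 and Areg clusters in the HR- luminal gate and one with at least 3 Areg UMIs in the HR+ luminal gate. A few genes of the marker and pathway lists are not reported here by name.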

Additional observations from a re-analysis of the deposited data

Results flagged for a closer look

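The ratios of HU to untreated of the 9 genes in HR+ and HR- luminal cells were set side by side for the 2 genotypes. For 5 combinations of gene and lineage the ratio went opposite ways in the 2 genotypes, with both counting intervals clear of 1. Each rests on 1 library a condition, and the difference between genotypes was not tested. In HR+ luminal cells Calca had 53.7 in the wild type and 0.769 in Brca2mut/WT, Esr1 had 0.671 and 1.41, and Prlr had 1.16 and 0.908. In HR- luminal cells Cited1 had 1.66 and 0.606, at under 10 CPM in all 4 libraries, and Prlr had 0.947 and 1.05. The intervals cover counting error only and are narrow at high counts, so that even the ratios of Prlr near 1 met the rule. No share of all genes that meet this rule is given, and the count of 5 is therefore not set against a background. Among the 5 combinations, the opposite direction of Calca and of Prlr in HR+ luminal cells did not hold when single tag pools were left out. Without pool 4 of the Brca2mut/WT control, which held 89 of its 124 HR+ luminal cells, the Brca2mut/WT ratio was 6.31 for Calca and 1.29 for Prlr. Without pool 2 of wild-type HU, 83 of 146 cells, the wild-type ratio of Prlr was 0.793. That of Prlr in HR- luminal cells did not hold either, with 0.976 in Brca2mut/WT without pool 3 of the control. For Esr1 in HR+ luminal cells, the ratios without any 1 pool stayed between 0.652 and 0.730 in the wild type and between 1.29 and 3.42 in Brca2mut/WT, and for Cited1 in HR- luminal cells between 1.41 and 1.98 and between 0.525 and 0.677. However, 53.9% of the Cited1 UMIs of the HR- luminal gate lay in the 200 cells of the Areg clusters. These were 69 of 4209, 57 of 3457, 48 of 3592 and 26 of 2750 gate cells, in library order. The Cited1 ratios therefore describe the gate, and whether Cited1 changed within HR- luminal cells was not tested.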

How the results depend on the processing

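Of 336 lineage differences of single genes recomputed under alternatives, 316 kept their direction and side of the threshold, 7 were no longer called, 12 became called and 1 was reversed, Cited1 in basal against HR- luminal cells, at 1.65 with gates applied to clusters. Leaving out a library gave 3518 to 3821 called genes for HR+ against HR- luminal cells, 2537 to 2858 for HR+ luminal against basal and 2937 to 3480 for basal against HR- luminal cells, and 7 to 8, 7 to 8 and 2 to 3 of the 9 genes called higher. Without the replicate block the called genes were 3790, 2843 and 3238, and 7, 8 and 3 of the 9 genes were higher; the eighth was Prom1 in HR+ luminal against basal cells (1.02). In HR+ luminal cells the genes past 1.5-fold ran from 2 to 5 (HU, wild type), 3 to 7 (HU, Brca2mut/WT), 2 to 5 (genotype, untreated) and 4 to 8 (genotype, HU) when 1 tag pool was left out, and in HR- luminal cells from 0 to 1 for HU in each genotype. Over the same pools Tph1 with HU in the wild type ran from 0.546 to 1.20, Prom1 with HU in Brca2mut/WT from 0.103 to 1.21, and in the genotype comparisons Prom1 from 0.218 to 2.15 (untreated) and 0.156 to 1.12 (HU) and Cited1 from 0.278 to 1.10 (untreated); Calca ran from 3.41 to 36.6 (untreated), and Tnfsf11 reached 16.4 (HU) without pool 2 of wild-type HU. With only single-tag cells, 5 genes differed between genotypes without HU. Between genotypes with HU, 5 passed with gates applied to clusters and 2 under the looser cell filter, where Tph1 was 1.27; that filter also gave 1 gene in HR- luminal cells for HU in the wild type and for genotype with HU. No share of all genes past 1.5-fold is given for these alternatives, which also change the number of cells. The counts past 1.5-fold are therefore not set against a background. The cause of these changes was not tested. Depth limits Tnfsf11 most, with 60 UMIs in all HR+ luminal cells.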

Other observations

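Calca levels in the HR- luminal and basal gates followed the library rather than the lineage. They were 0.173 and 0.192 CPM in the wild-type control, 5.68 and 5.07 in wild-type HU, 0.797 and 0.894 in the Brca2mut/WT control and 2.03 and 2.39 in Brca2mut/WT HU, where the HR+ luminal cells of the same libraries had 30.3, 1629.9, 849 and 653. In HR+ luminal cells Dcn, listed as a stromal marker, had no UMI in pool 2 of Brca2mut/WT HU (10 cells) and in pools 2 and 3 of the Brca2mut/WT control (3 cells and 1 cell), and was highest, at 2901 CPM, in pool 1 of Brca2mut/WT HU (5 cells). Of the pools high in Calca, pool 4 of wild-type HU (22 cells) had 5.13 CPM of Dcn and 699 of Calca, and pool 4 of the Brca2mut/WT control (89 cells) 1929.7 and 1019.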
